A study of Homo sapiens with 6 samples.

Results

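The genes described here are 8 human NADPH oxidase genes and partner genes: NOX1, NOX4, NOX5, DUOX1, DUOX2, CYBA, NOXO1 and NOXA1. They were chosen by symbol, as producers of superoxide and peroxide in colon epithelium, and make up 8 of the 40173 genes and 41 of the 151453 transcripts with a gene in the count table. RNA came from HCT116, a human colorectal cancer cell line of epithelial origin. MOCK cells (genotype label wild type) received a control lentivirus, and CYGB cells (genotype label CYGB overexpression) received a lentivirus with the FLAG-fused CYGB coding region for constitutive expression. Both were selected with puromycin to give stable lines and grown in the same medium, and the labels name no further treatment. The comparison asks how the transcriptome differs when cytoglobin, a haem protein that binds oxygen, is overexpressed. Each group had 3 libraries, which the series calls biological replicates. Whether they came from separate transductions is not given in the sources used here, so p-values measure the spread between these libraries.

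NADPH oxidases carry electrons from NADPH across a membrane to oxygen. NOX1 makes superoxide and needs the membrane subunit p22phox (CYBA), the organizer NOXO1, the activator NOXA1 and a RAC GTPase. NOX4 needs p22phox alone among these partners, and NOX5, DUOX1 and DUOX2 are switched on by calcium. The dual oxidases release hydrogen peroxide and depend on the maturation factors DUOXA1 and DUOXA2. In the colon, NOX1 and DUOX2 are known as the main oxidases of the epithelial surface.

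CYGB had 10 to 34 counts in MOCK and 27681 to 34935 counts in CYGB libraries, so the labels matched the overexpressed gene. Library totals were 58138393 to 66035266 counts. Of these counts, 18.6 to 19.5% lay on transcripts that the table ties to no gene. Of the epithelial markers, KRT19 had 73832 to 94554 counts and EPCAM 8347 to 17519 counts, while the intestinal marker VIL1 had only 12 to 40 counts. Summed epithelial markers gave 4111 to 4583 CPM in MOCK and 4182 to 4470 CPM in CYGB (CPM, counts scaled to library size). The 7 phagocyte markers summed to 21.9 to 23.6 CPM in MOCK and 12.8 to 28.7 CPM in CYGB. Most of this was CD68, at 19.4 to 21 CPM in MOCK and 9.9 to 25.2 CPM in CYGB. CSF1R had 56 to 93 counts, while the defining PTPRC had at most 12 counts and SPI1 at most 4. The 6 stromal and endothelial markers summed to 46.9 to 52.3 CPM in MOCK and 49.2 to 57.1 CPM in CYGB. Most of this was COL1A1, at 44.3 to 50.1 CPM in MOCK and 47.4 to 53.7 CPM in CYGB.

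The 8 genes covered a wide range of levels. Genes were compared only per length, with each transcript count divided by its length and scaled to a common sum per library (TPM). These levels sum the coding and noncoding transcripts of a gene, and a count on a short transcript weighs more. Levels of coding transcripts alone were not computed. CYBA, the common subunit, stood far above the others at 588 ± 73.2 TPM (SD over 6 libraries), a level higher than in 99% of the tested genes. DUOX1 followed at 13.6 ± 3.57 TPM, NOXO1 at 4.97 ± 4.39 TPM, DUOX2 at 0.982 ± 0.225 TPM and NOXA1 at 0.95 ± 0.753 TPM. NOX5 at 0.482 ± 0.113 TPM and NOX1 at 0.331 ± 0.206 TPM were the lowest of those with counts, and NOX4 was at 0 in all 6 libraries. CYBA and DUOX1 did not overlap over the libraries, with 43.3 times between their means. DUOX1 was above NOXO1 and NOXO1 was above DUOX2 in 6 of 6 libraries, although their ranges over all libraries overlapped. Below that, DUOX2 and NOXA1, NOXA1 and NOX5, and NOX5 and NOX1 were each in this order in only 4 of 6 libraries and did not differ beyond their spread.

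**Figure D1:**
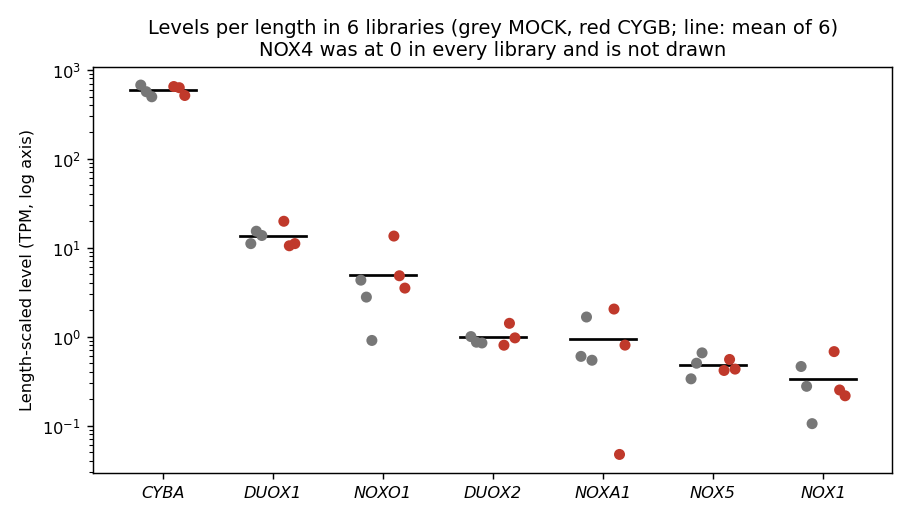
Length-scaled level of each gene (TPM, log axis) in the 3 MOCK libraries (grey) and the 3 CYGB libraries (red), with a line at the mean of 6. CYBA sits between 497 and 673 TPM, DUOX1 between 10.5 and 19.8 TPM, and the means of the remaining genes lie lower.

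In CYGB-overexpressing cells, NOXO1 was the member with the largest difference, at 4.94 times its MOCK level in counts scaled to library size, and the other 6 tested members had log2 fold changes from -0.31 to 0.41. Of the 8 genes, 7 passed edgeR's expression filter (all but NOX4). At the threshold of the study's methods (unadjusted p of at most 0.01 with a ratio of at least 2 or at most 0.5), edgeR's quasi-likelihood test called 0 of the 7, against 0.565% of all 19987 genes tested. At a Benjamini-Hochberg adjusted p under 0.05 it also called 0 of the 7, against 0.0550% of all genes. An unadjusted p under 0.05 was reached by 1 of the 7, NOXO1, against 4.54% of all genes. DESeq2 called 1 member at the threshold of the methods, again NOXO1, against 1.32% of the genes it gave a p, and 0 at an adjusted p under 0.05, against 0.543%. In CPM, the groups of libraries did not overlap for 1 of the 7 genes, against 11.0% of all genes tested. The median log2 fold change was 0.03 over the 7 members and -0.01 over all genes tested. In whole cell populations such as these, fewer cells with a transcript and less of it per cell cannot be told apart.

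**Figure D2:**
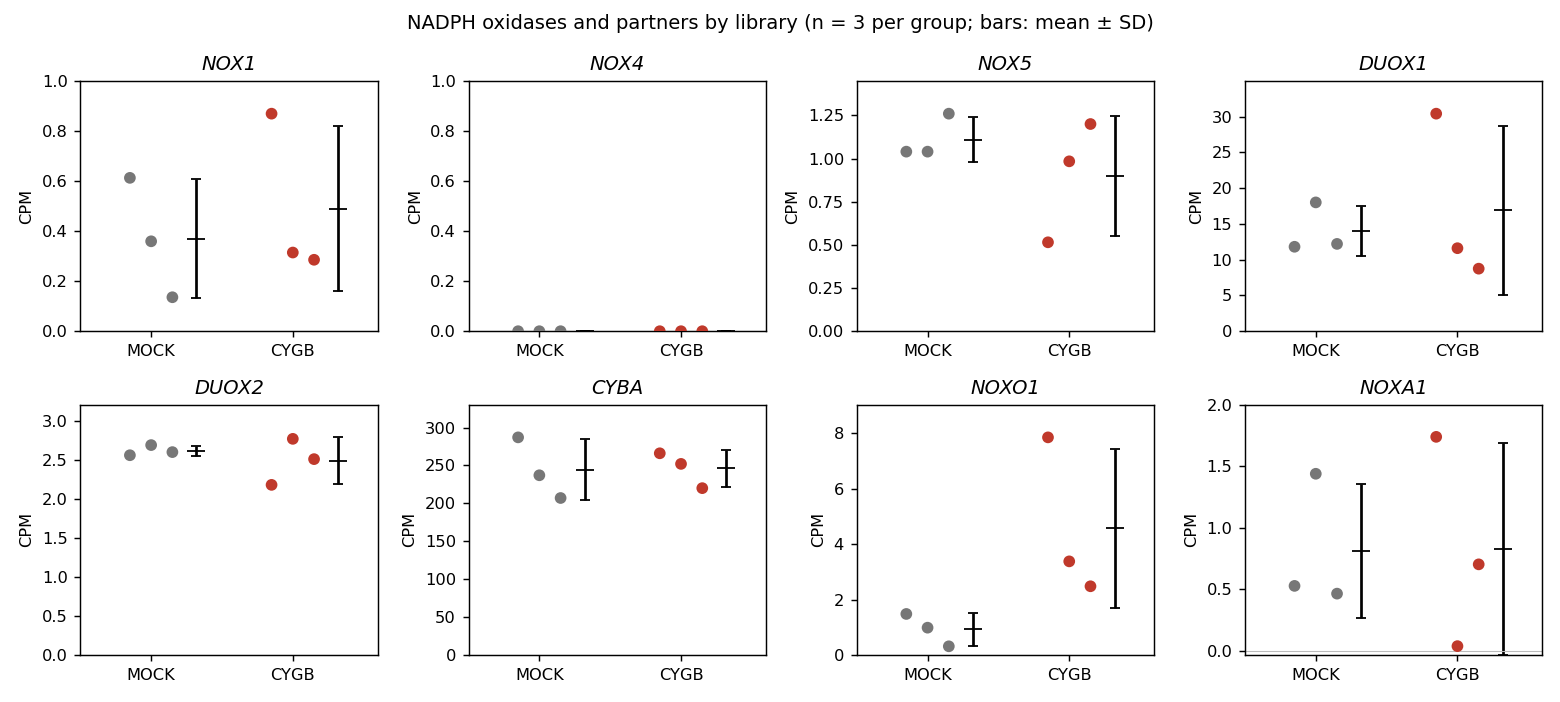
CPM of each gene in the MOCK (grey) and CYGB (red) libraries, 3 points per group, with the mean ± SD beside them and a separate vertical axis per gene. The groups of NOXO1 are apart, NOX4 is at 0, and those of the other 6 genes overlap.

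NOXO1 (ENSG00000196408, chromosome 16 of GRCh38 from 1978917 to 1984192, minus strand) encodes the organizer that tethers the NOX1 complex to the membrane through a PX domain that binds phosphoinositides. Counts were 70, 52 and 16 in MOCK (replicates 1, 2 and 3, the order used throughout), against 397, 172 and 130 in CYGB. In counts and in CPM all CYGB libraries were above all MOCK libraries, and CYGB replicate 1 was well above the other two. Per length the groups overlapped, at 4.31, 2.78 and 0.905 TPM in MOCK, against 13.5, 4.83 and 3.51 TPM in CYGB, with MOCK replicate 1 above CYGB replicate 3. The means per length were 2.66 ± 1.7 TPM for MOCK and 7.28 ± 5.42 TPM for CYGB, closer together than in counts. In CPM the means were 0.926 ± 0.588 CPM for MOCK and 4.57 ± 2.88 CPM for CYGB (SD over 3 libraries each). By the quasi-likelihood test of edgeR the log2 fold change was 2.30 (SE, standard error, 0.68, 95% interval 0.64 to 3.97), the unadjusted p 0.0145 and the adjusted p = 0.963. Over the alternatives the adjusted p ranged from 0.0842 with DESeq2 to 1, and no fit gave an adjusted p under 0.05. Without CYGB replicate 1 the log2 fold change was 1.66.

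The counts of NOXO1 also lay on different transcripts in the 2 groups. The coding transcripts ENST00000397280 and ENST00000356120 together had 0, 3 and 0 counts in MOCK, against 389, 160 and 115 in CYGB. They made up 0, 5.77 and 0% of the gene's counts in MOCK and 98, 93 and 88.5% in CYGB. Over the libraries this was 3 counts against 664, a ratio of 218 at equal library size (95% exact interval 74.3 to 1060, for counting error only). That interval pools the reads of each group. It covers neither the spread between libraries nor errors in assigning reads to transcripts, and 389 of the 664 counts came from CYGB replicate 1. In MOCK nearly all counts lay on ENST00000569739, a short transcript at the 3′ end of the gene that GENCODE 29 types as retained intron. It had 70, 46 and 15 counts in MOCK, against 2, 11 and 13 in CYGB, with no overlap between groups. Its log2 fold change was -2.34 (SE 0.87, unadjusted p = 0.0387, adjusted p = 1, edgeR on transcripts). After summing only coding transcripts in every gene, the log2 fold change of NOXO1 was 7.62 (unadjusted p = 0.000738, adjusted p = 0.354, edgeR), a size that depends on the near-empty MOCK libraries. The coding sum of NOXO1 passed the expression filter only through the CYGB libraries, so this p rests on the same counts that admitted it.

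The coding counts lay on different NOXO1 isoforms within the CYGB group. ENST00000397280 had 381, 0 and 0 counts in CYGB replicates 1 to 3, and 0, 3 and 0 in MOCK. ENST00000356120 had 8, 160 and 115 counts in CYGB and 0 in each MOCK library. So most coding counts of CYGB replicate 1 were assigned to the first isoform, and those of CYGB replicates 2 and 3 to the second. Whether the reads could tell these isoforms apart was not tested. The other coding isoforms listed, ENST00000354249 and ENST00000567471, were at 0 in all 6 libraries. The full-length isoforms are nearly alike, with coding regions of 1128 bases (ENST00000397280), 1113 bases (ENST00000356120) and 1110 bases (ENST00000354249). Their coding regions differ only at the borders of exon 3, in the part of the gene that encodes the PX domain. These stretches, shown because they are all that separates the coding regions of the isoforms above, run from the last 20 bases of exon 2 through exon 3 to the first 20 bases of exon 4 (spliced, within chr16:1980525-1980958, minus strand, GRCh38, from the GENCODE 29 transcripts). Capitals mark the bases that not all 3 isoforms have, which are 3 bases at the start of exon 3 and 15 bases at its end.
ENST00000397280: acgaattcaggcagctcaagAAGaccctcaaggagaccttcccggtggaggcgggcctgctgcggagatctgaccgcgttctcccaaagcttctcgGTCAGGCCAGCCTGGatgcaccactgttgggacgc
ENST00000356120: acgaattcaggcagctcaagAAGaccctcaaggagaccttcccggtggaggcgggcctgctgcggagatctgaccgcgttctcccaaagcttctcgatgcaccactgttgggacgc
ENST00000354249: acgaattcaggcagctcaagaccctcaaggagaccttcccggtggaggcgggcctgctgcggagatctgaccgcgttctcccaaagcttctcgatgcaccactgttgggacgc

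Of all windows of 150 bases (a length set here), 7.31% in ENST00000397280 and 4.89% in ENST00000356120 occur in no other NOXO1 transcript of GENCODE 29. The short ENST00000569739, which held most MOCK counts, starts inside an intron. Its first bases are shown because they separate it from the coding isoforms, with the retained intron bases in capitals and the exon that follows in lower case (chr16:1979523-1979644, minus strand, GRCh38).
ENST00000569739: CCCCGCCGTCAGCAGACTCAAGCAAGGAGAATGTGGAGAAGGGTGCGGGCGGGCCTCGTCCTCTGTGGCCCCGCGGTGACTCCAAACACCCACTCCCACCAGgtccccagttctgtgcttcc
Beyond these 102 bases its sequence is shared with ENST00000356120, and 20% of its 150-base windows are its own.

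**Figure D3:**
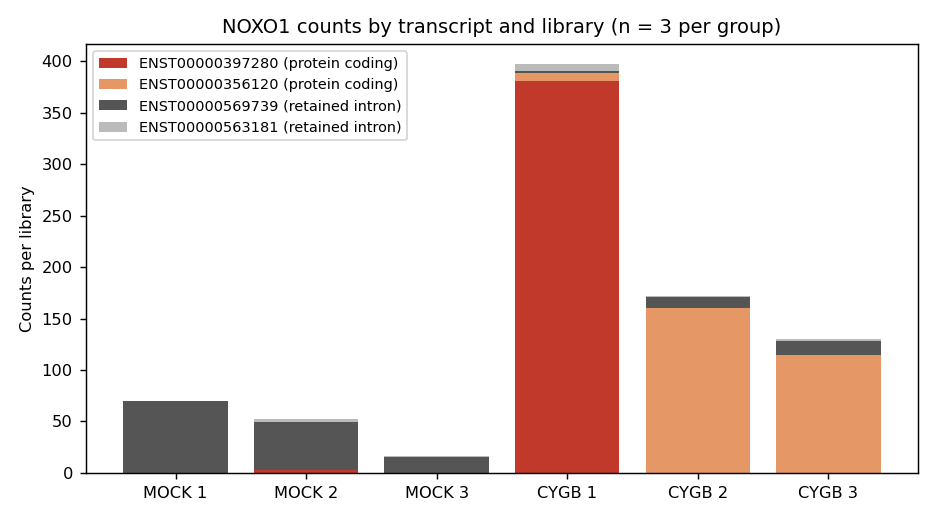
Counts of NOXO1 per library, stacked by transcript, for 3 MOCK and 3 CYGB libraries. The dark retained intron transcript makes up most of the MOCK bars, ENST00000397280 makes up 381 of the 397 counts in CYGB replicate 1, and ENST00000356120 leads in CYGB replicates 2 and 3.

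NOXO1 shares its position with TBL3, a gene on the other strand whose product is a nucleolar WD-repeat protein of ribosome assembly. The last exon of the TBL3 transcript ENST00000568546 (4382 bases, from 1978552 to 1982933 on chromosome 16) covers all exons of 5 of the 6 NOXO1 transcripts in the table. Whether counting used strand is not given in the sources used here, so in these counts reads from NOXO1 and from this exon cannot be told apart. The counts do not show which reads crossed NOXO1 splice junctions, which the continuous TBL3 exon lacks. TBL3 had 3747, 4072 and 4651 counts in MOCK, against 4572, 4554 and 5469 in CYGB, a log2 fold change of 0.20 (SE 0.11, adjusted p = 0.963, edgeR). Its long transcript itself had 3699, 4053 and 1419 counts in MOCK, against 3046, 2882 and 5357 in CYGB, and these groups overlapped. TBL3 counts also moved between transcripts by library. ENST00000615855 had 3206 counts in MOCK replicate 3 and 0 in every other library. ENST00000569628, a retained intron transcript, had 0 in each MOCK library, against 321, 1628 and 86 in CYGB. With NOXO1 and TBL3 summed, the log2 fold change was 0.26 (unadjusted p = 0.0387, adjusted p = 0.963, edgeR). NOXO1 had only 16 to 70 counts in MOCK and 130 to 397 in CYGB. The sum therefore mostly follows TBL3 and cannot show whether NOXO1 itself differed. Among the 21225 assembled transcripts that have neither gene nor position, 1906 had a shift opposite to that of NOXO1 (3.65 CPM) and of 50 to 150% of its size. For 212 of these 1906 the groups did not overlap. Of the tested transcripts with a gene, 10.4% had groups without overlap in either direction. The assembled transcripts were picked by their shift, and those with a like shift in the same direction as NOXO1 were not counted. The part of assembled transcripts in the NOXO1 result was not tested.

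**Figure D4:**
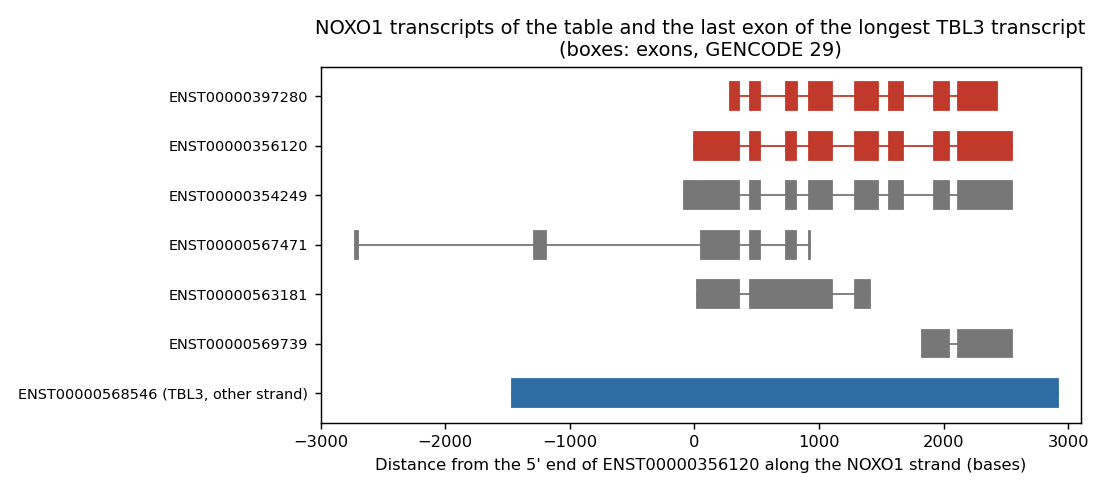
Exons (boxes) of the 6 NOXO1 transcripts in the table and of the last exon of TBL3 ENST00000568546 (blue, other strand), by distance in bases from the 5′ end of ENST00000356120. The coding isoforms with counts, ENST00000397280 and ENST00000356120 (red), lie within 0 to 2551 bases. ENST00000569739 holds only the 3′ end of the gene. The TBL3 exon covers all but the far upstream exon of ENST00000567471.

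NOX1 (ENSG00000007952, chromosome X from 100843324 to 100874345, minus strand), the superoxide-producing oxidase that NOXO1 organizes, was barely detected. It had 29, 19 and 7 counts in MOCK, against 44, 16 and 15 in CYGB. The groups overlapped, with CYGB replicate 1 highest and MOCK replicate 3 lowest. Its log2 fold change was 0.41 (SE 0.69, 95% interval -1.28 to 2.10, adjusted p = 0.977, edgeR), so ratios from 0.412 to 4.27 were within its interval. The table lists 1 of the 5 NOX1 transcripts of GENCODE 29, and the others were not analysed here.

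NOXA1 (ENSG00000188747, chromosome 9 from 137423350 to 137434406, plus strand) encodes the activator that binds NOX1 and RAC. It had 25, 76 and 24 counts in MOCK, against 88, 2 and 37 in CYGB. Both the highest and the lowest library were CYGB libraries, replicates 1 and 2. The log2 fold change was 0.03 with a wide 95% interval of -2.55 to 2.60 (SE 1.06, adjusted p = 0.999, edgeR), and it was -1.12 without CYGB replicate 1. NOXA1 overlaps ENTPD8 on the other strand by 43 bases, and ENTPD8 had 117 to 210 counts.

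CYBA (ENSG00000051523, chromosome 16 from 88643283 to 88651152, minus strand) encodes p22phox, which stabilizes NOX1 and NOX4 in the membrane. It had 13541, 12538 and 10653 counts in MOCK, against 13459, 12817 and 11536 in CYGB. The libraries of both groups interleaved, at 244 ± 40.2 CPM in MOCK and 246 ± 24 CPM in CYGB (SD, n = 3 each). The log2 fold change was 0.01 (SE 0.14, adjusted p = 0.998, edgeR), and its 95% interval of -0.33 to 0.36 leaves out a 2-fold difference. CYBA was the most clearly measured member, with 92% of its counts on ENST00000261623 and 97.2 to 98.4% on coding transcripts in each library. It is the member with the most counts, and the genes whose log2 CPM ran most like it over the 6 libraries, among the 9947 genes that averaged 10 CPM or more, were SIAH1 (Pearson r = 0.993), B3GALT6 (r = 0.990) and FUBP3 (r = 0.990). These correlations rest on 6 points of shared libraries and are a description only.

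DUOX1 (ENSG00000137857, chromosome 15 from 45129933 to 45165576, plus strand), a dual oxidase best known from airway and thyroid, was the oxidase with the highest level per length. That level includes its retained intron transcripts. It had 556, 951 and 627 counts in MOCK, against 1535, 591 and 459 in CYGB. CYGB replicate 1 was the highest library and CYGB replicate 3 the lowest, so the groups overlapped fully. Its log2 fold change was 0.27 (SE 0.49, 95% interval -0.92 to 1.47, adjusted p = 0.979, edgeR), and it was -0.46 without CYGB replicate 1. That library was also the highest of the 6 for NOX1, NOXO1 and NOXA1. Coding transcripts held 23.4, 67.1 and 25.4% of DUOX1 counts in MOCK and 73.6, 55 and 37% in CYGB.

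The spread of DUOX1 lay in its long transcripts. ENST00000389037, which is coding, had 46, 321 and 0 counts in MOCK, against 513, 98 and 0 in CYGB. ENST00000561220, typed as subject to nonsense-mediated decay, had 196, 89 and 173 counts in MOCK, against 121, 19 and 16 in CYGB, a log2 fold change of -1.57 (adjusted p = 1, edgeR). In contrast, the retained intron transcript ENST00000557893 had 102, 141 and 172 counts in MOCK, against 158, 140 and 166 in CYGB, without a library standing apart. Of the windows of 150 bases, 0.825% in ENST00000389037 and 51.7% in ENST00000557893 occur in no other DUOX1 transcript.

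DUOX2 (ENSG00000140279, chromosome 15 from 45092650 to 45114344, minus strand), the dual oxidase known from gut epithelium, was low and even. It had 121, 142 and 134 counts in MOCK, against 110, 141 and 132 in CYGB. The groups overlapped, and the 6 libraries lay within 110 to 142 counts. The log2 fold change was -0.07 (SE 0.17, adjusted p = 0.986, edgeR), with a 95% interval of -0.49 to 0.34 that leaves out a 2-fold difference. Its leading transcript, the coding ENST00000389039, held 87.4% of the counts.

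NOX5 (ENSG00000255346, chromosome 15 from 68930525 to 69062743, plus strand), the calcium-dependent oxidase that needs no p22phox, had 49, 55 and 65 counts in MOCK, against 26, 50 and 63 in CYGB. CYGB replicate 1 was lowest and the other libraries were alike. The log2 fold change was -0.31 (SE 0.35, 95% interval -1.15 to 0.54, adjusted p = 0.964, edgeR). Of these counts, 91.9% lay on ENST00000527315, typed as retained intron. The coding NOX5 transcripts listed had 6 counts in CYGB replicate 3 and 0 in the other 5 libraries.

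NOX4 (ENSG00000086991, chromosome 11 from 89324356 to 89498187, minus strand), the constitutively active oxidase that releases mostly hydrogen peroxide, had 0 counts in all 6 libraries. A count of 0 allows up to 3 counts, which is 0.0568 to 0.0635 CPM in these libraries (for counting error only). The table lists 1 of the 15 NOX4 transcripts of GENCODE 29, so this holds for ENST00000424319 alone.

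Per transcript, 23 of the 41 member transcripts passed edgeR's expression filter. The quasi-likelihood test called 0 of the 23 at the threshold of the methods, against 1.02% of all 66609 transcripts tested, and 0 at an adjusted p under 0.05, against 0.0150%. An unadjusted p under 0.05 was reached by 1 of them, ENST00000569739 of NOXO1, against 3.78% of all transcripts. DESeq2 also called 0 at the threshold of the methods, against 2.30% of the transcripts it gave a p, and 0 at an adjusted p under 0.05, against 1.14%. The groups did not overlap for 1 of the 23, the same transcript, against 10.4% of all transcripts tested. The coding NOXO1 isoforms were not among the 23, since each had enough counts in at most 2 libraries. Without CYGB replicate 1, 2 of the 25 member transcripts then tested passed the threshold of the methods, ENST00000356120 of NOXO1 and ENST00000561220 of DUOX1. The share of all transcripts called in that fit is not given here. ENST00000356120 had 0 counts in each MOCK library and entered the fit only through CYGB replicates 2 and 3. Its entry and its call therefore rest on the same counts.

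**Figure D5:**
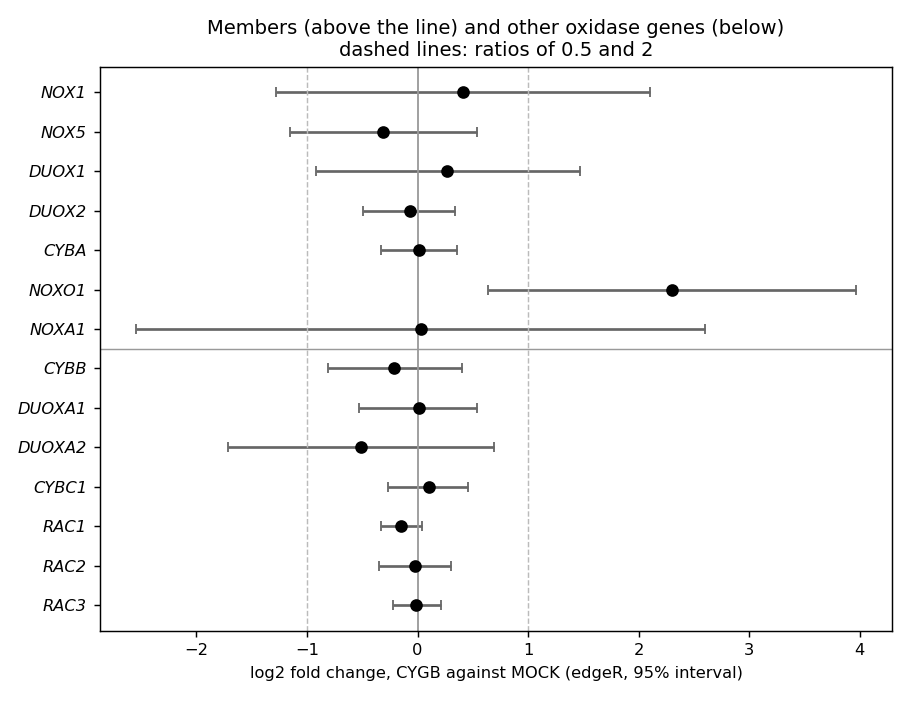
Log2 fold change of CYGB against MOCK with its 95% interval from edgeR, for the 7 tested members (above the line) and 7 other oxidase genes (below). Only the interval of NOXO1, 0.64 to 3.97, lies apart from 0. Among the members, the intervals of CYBA and DUOX2 stay inside the dashed lines at ratios of 0.5 and 2. Those of the other oxidase genes except DUOXA2 also stay inside.

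The other subunits and maturation factors of the oxidase family showed no called gene. Of 11 genes listed, 8 were tested, with 0 called at either threshold by edgeR or DESeq2 and 0 with an unadjusted p under 0.05. Their median log2 fold change was -0.02. The dual oxidase maturation factors averaged 3.61 ± 0.852 TPM (DUOXA1) and 0.335 ± 0.125 TPM (DUOXA2) over the 6 libraries. DUOXA1 had 94 to 139 counts in MOCK and 101 to 131 in CYGB (log2 fold change 0.01, SE 0.22), and DUOXA2 had 12 to 23 counts in MOCK and 7 to 18 in CYGB (-0.51, SE 0.49). Each starts head to head with its oxidase, and the annotated spans overlap by 6 bases for DUOX1 and 24 bases for DUOX2.

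Among the RAC GTPases, RAC1 had 16288, 16999 and 16725 counts in MOCK, against 15870, 15457 and 14600 in CYGB. Its groups did not overlap, at a log2 fold change of -0.15 (SE 0.07, unadjusted p = 0.0977, adjusted p = 0.963, edgeR). RAC2, better known from blood cells, had 4328 to 6204 counts (log2 fold change -0.02), and RAC3 had 3879 to 4775 counts (-0.01). CYBC1, the chaperone of the p22phox complex, which the table lists as C17orf62, had 4013 to 5253 counts (0.10, SE 0.15).

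The phagocyte oxidase genes were low. CYBB, the phagocyte catalytic subunit NOX2, had 82, 103 and 117 counts in MOCK, against 86, 66 and 113 in CYGB (log2 fold change -0.21, SE 0.25, adjusted p = 0.964, edgeR). NCF1, the p47phox organizer and a relative of NOXO1, had 13, 6 and 0 counts in MOCK and 0 in each CYGB library. It has near-identical pseudogene copies, so its counts are uncertain. NCF4 had at most 8 counts, and NOX3, the oxidase of the inner ear, had 0 in all libraries.

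Genes around the oxidases also showed no call by edgeR or DESeq2 at either threshold, and none had an unadjusted p under 0.05 with edgeR or DESeq2. Of 10 regulators of oxidase activity, all 10 were tested, with a median log2 fold change of 0.02. P4HB, a protein disulfide isomerase known to associate with oxidase subunits, had a log2 fold change of 0.01 (SE 0.08). HSP90AA1, a chaperone of NOX5, had -0.53 (SE 0.47), with 46879 counts in CYGB replicate 2 and 160376 to 194933 in the other 5 libraries. All 6 genes that supply NADPH were tested, with a median of 0.04, among them PGD of the pentose phosphate pathway at 0.06 (SE 0.08) and MTHFD1 of folate metabolism at 0.02 (SE 0.07).

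For the removal, use and passage of superoxide and peroxide, 14 of 19 listed gene IDs were tested (SOD2 has 2 IDs), with a median log2 fold change of -0.02. PRDX1, a thioredoxin-dependent peroxidase, had -0.25 (SE 0.13), and SOD1, the cytosolic superoxide dismutase, had -0.09 (SE 0.08). All 8 transcription factors linked to oxidase genes were tested, with a median of -0.06, including RELA at -0.21 (SE 0.35).

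The marker lists had 0 calls at either threshold with edgeR or DESeq2. Their median log2 fold changes were 0.06 for 6 tested epithelial markers (KRT19 0.11, KRT8 -0.14), 0.08 for 5 tested phagocyte markers (CD68 -0.12, CSF1R 0.08) and 0.05 for 4 tested stromal and endothelial markers (COL1A1 0.10, VWF 0.08). With edgeR 1 epithelial and 1 phagocyte marker had an unadjusted p under 0.05, against 4.54% of all genes, and both are named after their values were seen. VIL1 had 22, 24 and 12 counts in MOCK, against 34, 40 and 36 in CYGB (log2 fold change 0.89, adjusted p = 0.963, edgeR). ITGAM had 29, 26 and 31 counts in MOCK, against 55, 48 and 59 in CYGB (0.88, adjusted p = 0.963, edgeR).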

How the data were processed

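The table that the authors deposited holds raw read counts for each transcript, from paired-end libraries made with the NEBNext Ultra RNA kit. The submitters' processing notes name HISAT2, HISAT, DESeq2 and hg19, but 99.6% of the 151393 transcripts found in GENCODE 29 match its positions, so GRCh38 coordinates are given. The counting program is not given in the sources used here.

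Transcript counts were summed per gene. Transcripts without a gene entered neither library sizes nor tests. edgeR 4.0.16 in R 4.3.3 was run on all genes and on all transcripts (filterByExpr, minimum count 10, TMM, glmQLFit and glmQLFTest, Benjamini-Hochberg adjustment over all features tested), without a replicate term. Standard errors are the log2 fold change over the root of F. TPM used GENCODE 29 transcript lengths. Biological variation (edgeR, common coefficient) came to 36.6% for genes and 78.9% for transcripts.

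Members, lists and tests were chosen with earlier results of these data known. Genes named were all members and other oxidase subunits, genes overlapping a member where a result turns on them, called genes and the 2 highest per length in each other list, and 3 genes most like the member with the most counts. EPCAM, PTPRC and SPI1, named as defining markers, fall outside this rule and were chosen after their values were seen. A few genes that the rule names are not reported here. Alternatives were DESeq2 1.42.0, its size factors, no filter, a mean of at least 50 counts, a replicate block, each library left out, transcripts without a gene included, the most abundant or the coding transcripts alone, and the length of the longest transcript. NOXO1 summed with TBL3 was added after the data were seen. The edgeR steps were also run on simulated counts with known changes, and the outcome is not given here. The simulation did not model reads moving between transcripts or between overlapping genes.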

Additional observations from a re-analysis of the deposited data

How the results depend on the processing

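The number of members called at the threshold of the methods was 0, and 1 (NOXO1) with DESeq2, without an expression filter, with the replicate block and for coding transcripts only. With DESeq2 this stood against 1.32% of all genes. The shares of all genes called in the other fits with 1 call are not given here, so those calls cannot be set against them. In the fit of coding transcripts only, NOXO1 passed the filter through its CYGB libraries alone. For NOXO1 the log2 fold change was 2.31 with DESeq2, 2.30 without a filter, 2.37 with the replicate block and 7.62 for coding transcripts only, with adjusted p from 0.0842 (DESeq2) to 1 over all alternatives. It was 1.66 to 2.81 with each library left out. What causes these differences was not tested. The number of member transcripts called was 0, 1 without a filter (ENST00000356120) and 0 to 2 with each library left out, with 2 without CYGB replicate 1. The shares of all transcripts called without a filter or with a library left out are not given here. ENST00000356120 had 0 counts in each MOCK library. Members or transcripts with an adjusted p under 0.05 numbered 0 in all fits run.

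With each library left out, directions turned for NOX1 (-0.30 to 0.97), DUOX1 (-0.46 to 0.59) and DUOX2 (-0.16 to 0.01), each without CYGB replicate 1 only, for CYBA (-0.09 to 0.15, without MOCK replicate 2 or 3 or CYGB replicate 1 or 2) and for NOXA1 (-1.12 to 0.73, without MOCK replicate 1 or 3 or CYGB replicate 1). They also turned for DUOXA1 (-0.13 to 0.13), RAC2 (-0.14 to 0.08), RAC3 (-0.05 to 0.04), P4HB (-0.04 to 0.07), MTHFD1 (-0.01 to 0.06), RELA (-0.58 to 0.04), CD68 (-0.40 to 0.18), CSF1R (-0.05 to 0.27) and VWF (-0.40 to 0.47). With the replicate block, NOXA1 was at -0.27 and VWF at -0.09. Across genes, the deviations from the group mean of libraries with the same number correlated at 0.0294, 0.00521 and 0.031. These low values run over all genes tested, so they do not settle whether samples of the same number were handled in pairs. For NOXO1 the unadjusted p was 0.00165 with the replicate block (adjusted p = 0.917, edgeR), against 0.0145 without it.

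Divided by the longest transcript, levels were 433 TPM for CYBA, 6.75 TPM for DUOX1 and 0.293 TPM for NOX5, which then lay below NOX1 at 0.426 TPM. DUOX2 at 0.962 TPM then lay below NOXA1 at 1.22 TPM. By the most abundant transcript alone NOXO1 had no value, since that transcript did not pass the filter. For coding transcripts NOX5 had none, and with a minimum mean of 50 counts NOX1 and NOXA1 had none. NOX1, NOX5 and NOXA1 had at most 88 counts in a library.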
